A study of Mus musculus with 4 samples.

Results

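The 10 genes described here, Fkbp5, Tsc22d3, Klf9, Zbtb16, Per1, Sgk1, Ddit4, Nr3c1, Errfi1 and Cebpd, are the receptor for glucocorticoids and genes known to respond to it. They, and the gene lists used below, were chosen with earlier results of these data known. The 10 members were matched by gene symbol, and all 10 were found among the 32285 genes listed in each count matrix. Their transcripts were followed in leukocytes sorted on CD45, a surface protein of white blood cells, from the brains of wild-type C57Bl/6 mice on day 3 after cardiac arrest (CA). The arrest was brought on with potassium chloride and the mice were then resuscitated, while sham mice had the surgery without the arrest. Young sham and young CA mice were 3 to 6 months old, and aged sham and aged CA mice were 18 to 20 months old. Each of these 4 groups is 1 library of droplet-based 3′ single-cell RNA sequencing pooled from 3 mice, so there is no spread between animals, no test was possible, and every interval given is a 95% interval for counting error only.

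Glucocorticoids are steroid hormones of the adrenal gland that rise in stress and act on nearly all immune cells. They bind the glucocorticoid receptor, encoded by Nr3c1, which leaves its chaperones, enters the nucleus and binds short DNA elements, raising some genes and lowering many inflammatory ones. The best known raised genes include Fkbp5, a chaperone that dampens the receptor in return, and Tsc22d3, which encodes the anti-inflammatory protein GILZ. These genes are often used as a readout of exposure to the hormone, but several also respond to other stresses, and hormone levels of these mice are not given in the sources used here.

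Cells were placed in 6 classes, microglia, border macrophages, monocytes, T cells, B cells and neutrophils, by lists of marker genes, and unique molecular identifiers (UMIs, counts of captured transcripts) were added up within each class of a library and expressed as CPM, a rate relative to all UMIs of that class. A CPM is therefore a share of the RNA captured from a class and not an amount per cell. After filtering, the young libraries kept 8095 (sham) and 9246 (CA) cells, with 7513 and 8320 microglia among them, and the aged libraries kept 7072 and 5571, with 5123 and 4555 microglia. The aged sham library stood apart, with a median of 3255 UMIs per cell against 5942 to 10297 in the other libraries, 943 CPM of haemoglobin transcripts against 1.09 to 3.07, and 20.6% of cells left without a class against 3.71% to 8.81%. Every comparison with aged sham rests on that library, and the microglial counts are therefore also given without its shallow or haemoglobin-rich cells. Libraries shared 9 to 27 cell barcodes per pair. The microglial marker list summed to 19667 CPM (sham) and 12866 (CA) in young microglia and to 16723 and 8290 in aged, so these markers were themselves lower after CA in the cells they selected. Between 4.64% and 5.12% of the microglial level of this list was also found in T cells, a measure of free microglial RNA in the droplets. In aged sham and aged CA the list summed to 778 and 424 CPM in T cells. It summed to 627 and 471 in B cells and to 827 and 752 in neutrophils, so the T cell figure does not stand for every class. The part of free RNA in the B cell and neutrophil ratios was not tested.

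Promoter sequences are shown first, because the receptor's own recognition element was present near a start site of Sgk1, which was among the members not higher in CA microglia. RefSeq (GRCm38.p6) promoter windows, 250 bases before to 50 after a start site, were matched by symbol for 7 of the 10 members and came to 16 windows. They were searched on both strands for the full palindromic element, AGAACA and TGTTCT with any 3 bases between, and for the shorter TGTTCT, which is an arm of the full element on either strand and so also lies inside every full match. The full element was present in 3 of 32851 windows of all genes, and 1 of these 3 was a window of Sgk1. The short element was present in 19.0% of all windows and in 4 of the 16 member windows, all of Sgk1 or Tsc22d3. By gene it was present in 21.3% of all genes and in 2 of the 7 members. Both member counts are near these shares. Both genes have several windows. The other Tsc22d3 windows (chrX:140542619-140542918 and chrX:140548522-140548821) held neither element. The 250 bases before the start are given 5′ to 3′ on the gene's strand, with matched elements in capitals, for a window of Sgk1 (chr10:21993640-21993889, plus strand) and a window of Tsc22d3 (chrX:140600523-140600772, minus strand).
Sgk1: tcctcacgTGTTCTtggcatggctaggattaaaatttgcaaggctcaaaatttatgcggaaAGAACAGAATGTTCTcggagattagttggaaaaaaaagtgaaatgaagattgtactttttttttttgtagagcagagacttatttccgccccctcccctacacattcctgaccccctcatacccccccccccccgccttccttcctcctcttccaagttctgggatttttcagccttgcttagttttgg
Tsc22d3: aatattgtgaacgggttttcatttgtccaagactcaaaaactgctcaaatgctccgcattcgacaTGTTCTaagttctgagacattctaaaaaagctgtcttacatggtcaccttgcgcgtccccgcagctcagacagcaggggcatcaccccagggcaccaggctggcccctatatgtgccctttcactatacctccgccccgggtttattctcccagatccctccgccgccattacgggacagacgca
These matches are letters in a window, not measured binding sites. Tsc22d3 was higher after CA in microglia at both ages, whereas Sgk1 was not. The windows of Fkbp5, Klf9, Ddit4, Per1 and Errfi1 held neither element. Of these, Fkbp5, Klf9 and Ddit4 were 2-fold higher in CA microglia at both ages, Per1 in aged alone and Errfi1 at neither age.

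In microglia, the resident macrophages of the brain, 5 of the 10 members were at least 2-fold higher in young CA than in young sham and 6 of 10 in aged CA than in aged sham. The first 5 were Fkbp5, Tsc22d3, Klf9, Zbtb16 and Ddit4, and in aged mice Per1 joined them. Among all genes with enough counts, 6.44% were 2-fold higher in young and 6.40% in aged. No member was 2-fold lower at either age, where 3.38% and 9.86% of all genes were. The median log2 ratio of the members was 1.21 in young and 1.55 in aged, beside -0.07 and 0.02 over all genes, and all 10 members passed the filter on low counts in both comparisons.

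The receptor itself went the other way. Nr3c1 (chromosome 18, 39410545 to 39519421, minus strand, positions here and below from GENCODE M21 on GRCm38) measured 355 CPM (sham) against 212 (CA) among young mice and 329 against 213 among aged mice. Both CA libraries were thus at nearly the same level, below both shams. The ratio of CA to sham was 0.598 (0.586 to 0.610) in young and 0.647 (0.630 to 0.665) in aged microglia.

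Of the feedback and effector genes, Fkbp5 (chromosome 17, 28399094 to 28517527, minus strand) measured 205 CPM (sham) against 775 (CA) among young mice and 108 against 820.1 among aged mice. The shams differed from each other by more than the CA libraries did, and both CA libraries were above both shams. This is a 3.79-fold (3.71 to 3.86) difference in young and a 7.62-fold (7.35 to 7.89) difference in aged. Tsc22d3 (chromosome X, 140539528 to 140600659, minus strand), the GILZ gene with a promoter window shown above, measured 40.5 CPM (sham) against 135 (CA) among young mice and 41.4 against 114 among aged mice. Here the shams were level, and the ratios were 3.34 (3.19 to 3.49) and 2.75 (2.59 to 2.92).

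The transcription factors among the members showed both the largest and some of the smallest ratios. Klf9 (chromosome 19, 23141226 to 23168134, plus strand), a Krüppel-like factor induced by the receptor, measured 2.99 CPM (sham) against 56.8 (CA) among young mice and 4.48 against 131 among aged mice. It was nearly undetected in both shams, and the ratios were 19.0 (16.3 to 22.3) and 29.3 (24.8 to 35.0). Zbtb16 (chromosome 9, 48654297 to 48836222, minus strand), which encodes the zinc finger factor PLZF, measured 1.41 CPM (sham) against 62.9 (CA) among young mice and 3.84 against 40.3 among aged mice. Its ratios were 44.7 (35.9 to 56.5) and 10.5 (8.73 to 12.7). The ratios of both genes moved with the way microglia are gated. With cells assigned to the class with the highest share of markers, the log2 ratio of Zbtb16 was 3.65 in place of 5.48 in young and 2.24 in place of 3.39 in aged, and that of Klf9 in young was 3.55 in place of 4.25.

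Per1, a repressor of the circadian clock that the receptor also induces, measured 37.2 CPM (sham) against 59.7 (CA) among young mice and 35.9 against 112 among aged mice. The shams were level, and aged CA was the highest library. Its ratios were 1.61 (1.53 to 1.69) in young, under 2-fold, and 3.11 (2.92 to 3.32) in aged. Cebpd, a factor of the acute phase response, measured 94.0 CPM (sham) against 131 (CA) among young mice and 108 against 122 among aged mice, with ratios of 1.40 (1.35 to 1.44) and 1.13 (1.09 to 1.18), so it differed little at either age.

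The signalling members divided. Ddit4 (chromosome 10, 59949669 to 59951834, minus strand), which encodes REDD1, an inhibitor of mTORC1, measured 14.1 CPM (sham) against 125 (CA) among young mice and 4.22 against 94.6 among aged mice. Both CA libraries were far above both shams, with ratios of 8.91 (8.29 to 9.59) and 22.4 (18.8 to 26.8). Sgk1 (chromosome 10, 21882184 to 21999903, plus strand), a kinase that regulates ion transport and the source of the full element above, measured 258 CPM in both young libraries, with 222 (sham) against 157 (CA) among aged mice. The young ratio was 0.998 (0.978 to 1.02) and its log2 value ran from -0.16 to 0.18 over the processing alternatives, while the aged ratio was 0.705 (0.683 to 0.728). Errfi1, a feedback inhibitor of the EGF receptor, measured 33.6 CPM (sham) against 37.1 (CA) among young mice and 63.2 against 51.4 among aged mice, with ratios of 1.10 (1.04 to 1.17) and 0.814 (0.767 to 0.863).

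**Figure D1:**
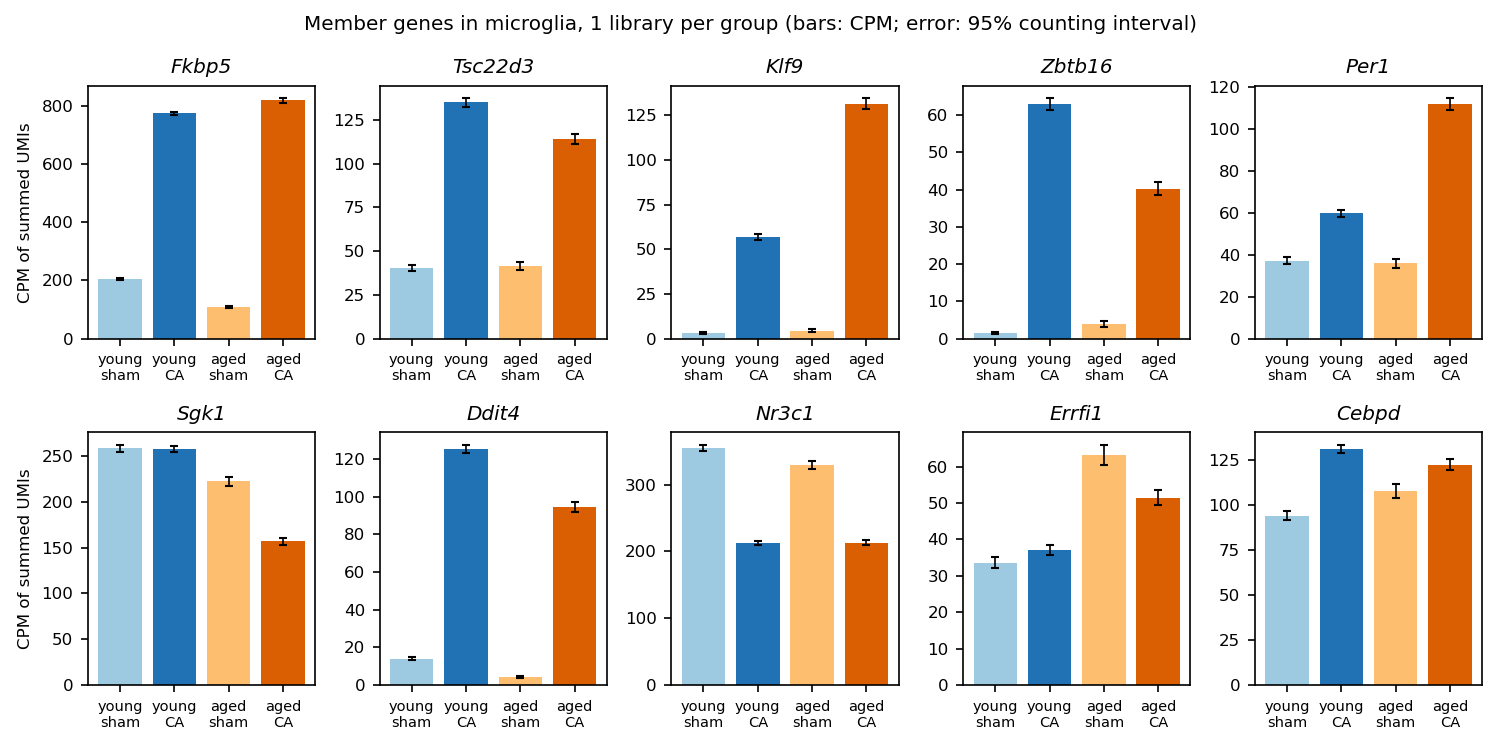
CPM of each of the 10 members in microglia of the 4 libraries (bars, 1 library each), with 95% counting intervals. Fkbp5, Tsc22d3, Klf9, Zbtb16 and Ddit4 are higher in both CA libraries than in both shams, Nr3c1 is lower in both, and Sgk1 is at 258 CPM in both young libraries.

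These microglial counts did not move with the settings that touch the aged sham library. With cells of at least 5000 UMIs, with barcodes of 1% or more haemoglobin left out, or with every cell thinned to 2000 UMIs, 5 members in young and 6 in aged were again 2-fold higher. Scaling by TMM, edgeR's normalization to a trimmed mean of genes, moved the median log2 ratio of all genes from -0.07 to 0.11 in young and from 0.02 to 0.13 in aged, with the same counts of members. In young it also moved the genes called from 687 higher and 361 lower to 925 and 214, that is from 65.6% to 81.2% higher. Median depth was 5767 and 9376 UMIs in young sham and CA microglia and 3724 and 10668 in aged, and the median mitochondrial share of UMIs was 1.65% and 2.59% in young and 1.94% and 3.72% in aged. The part of the mitochondrial share in the result was not tested.

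The members were also compared with wider lists of genes tied to the receptor. Of 20 other genes known to be induced by glucocorticoids, 14 could be compared in young microglia and 8 were 2-fold higher, and of 13 in aged 7 were higher and 1, the interleukin-7 receptor gene Il7r, was lower (36.6 CPM in sham and 4.40 in CA). Over all genes 6.44% were 2-fold higher in young and 6.40% in aged, and 9.86% were 2-fold lower in aged. The median log2 ratios of the list were 1.19 and 1.22. Xdh, xanthine dehydrogenase, measured 0.897 CPM (sham) against 28.8 (CA) among young mice and 2.26 against 82.3 among aged mice. The metallothionein genes Mt1 and Mt2, which bind metals, were 2.89-fold and 4.77-fold higher in young and 6.03-fold and 40.1-fold higher in aged. Il1r2, a decoy receptor for interleukin-1, was 8.58-fold and 6.75-fold higher, and Dusp1, a phosphatase that turns off MAP kinases, 2.64-fold and 3.06-fold. Hif3a was 7.94-fold higher in young and had too few counts to be compared in aged.

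A further list held receptor partners, chaperones and steroid enzymes. Of 15 such genes 14 could be compared at each age, and 0 were 2-fold higher, where 6.44% (young) and 6.40% (aged) of all genes were. With 14 genes, a count of 0 is near that share. In young 1, Nr3c2, was lower, where 3.38% of all genes were. The median log2 ratios of the list were -0.17 and -0.32. Nr3c2, the mineralocorticoid receptor, which binds the same hormones, measured 156 CPM (sham) against 73.0 (CA) among young mice and 168 against 90.8 among aged mice, a ratio of 0.469 (0.454 to 0.484) and 0.539 (0.518 to 0.561). The chaperone gene Hspa8 was 1.72-fold higher in young but at 0.808 of sham in aged, and the corepressor gene Nrip1 was at 0.728 and 0.767 of sham.

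Genes that glucocorticoids classically repress were not lower as a group. Of 10 such genes, 4 of the 6 that could be compared in young and 6 of 8 in aged were 2-fold higher, with median log2 ratios of 1.96 and 3.05. Over all genes 6.44% and 6.40% were 2-fold higher. The chemokine gene Ccl2 was 12.5-fold higher in young and 23.0-fold in aged, and Tnf 7.74-fold and 8.18-fold. Ccl3 was 4.11-fold and 13.8-fold higher and Ccl4 3.69-fold and 8.40-fold. Il6 was at 0.504 and 0.537 of sham, and Icam1 at 0.990 and 1.66. The immediate early genes, which also mark stress during cell isolation, had median log2 ratios of 0.28 in young and -0.20 in aged, with 3 of 12 genes 2-fold higher at each age and 1 lower in aged. Between the shams, 5 of 11 of them were 2-fold higher in aged, as were 5 of 7 of the repressed genes, where 3.10% of all genes were. The part of either list in the members' ratios was not tested.

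The difference was then followed cell by cell, with every microglial cell thinned to 2000 UMIs so that depth was equal and shallower cells (688 sham and 436 CA cells of young mice, 1522 and 127 of aged mice) left out. A UMI of Fkbp5 was found in 31.2% (sham) and 67.9% (CA) of young microglia, and in 18.2% and 73.5% of aged microglia. Without thinning these shares were 58.3%, 90.8%, 33.7% and 95.3%. Klf9 was found in 0.586% and 11.6% of young and in 0.916% and 22.4% of aged microglia, Zbtb16 in 0.337% and 11.5% and in 0.833% and 7.48%, and Nr3c1 in 47.8% and 34.5% and in 44.0% and 32.2%. No class here is known to lack these genes altogether. As a low comparison, Cebpd was found in 0% to 5.0% of T cells over the 4 libraries, thinned in the same way.

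A microglial cell had a UMI of 1.53 members on average after sham surgery and 2.41 after CA in young mice, and of 1.41 and 2.43 in aged mice. At least 3 members were found in 16.7% and 44.2% of young and in 14.4% and 44.8% of aged cells, higher in either CA library than in either sham. No member was found in 15.8% and 8.07% of young and in 19.0% and 5.71% of aged cells.

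**Figure D2:**
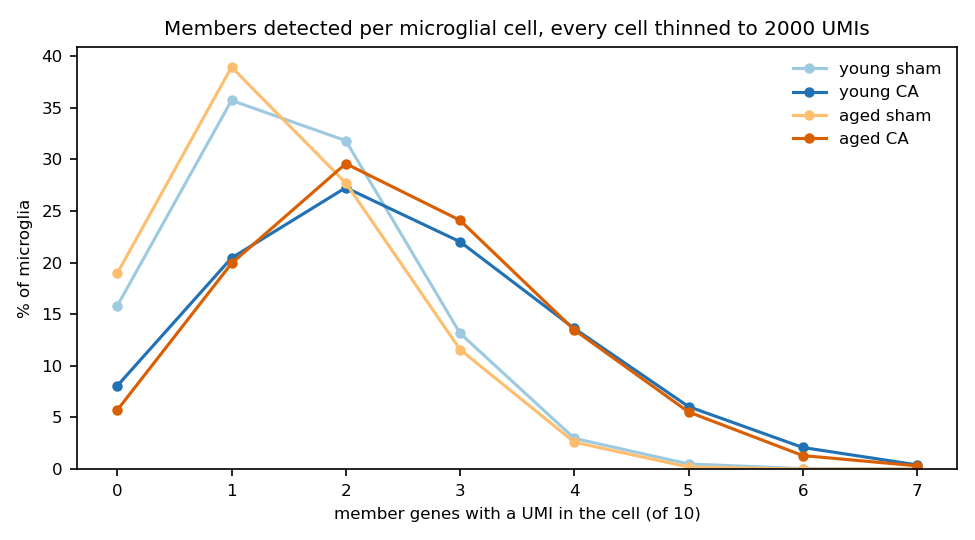
Share of microglia (y axis, %) by the number of the 10 members with a UMI in the cell (x axis), every cell thinned to 2000 UMIs, 1 line per library. The CA lines peak at 2 members and the sham lines at 1, and 44.2% and 44.8% of CA microglia have 3 or more.

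The higher levels were not limited to a few of the microglial clusters. Clusters were made without knowledge of class and those with at least 100 microglia in a library were compared. These were 5 clusters in young sham, mostly clusters 4 and 0, 9 in young CA, mostly 16, 7 and 1, 8 in aged sham, mostly 4, 0 and 5, and 5 in aged CA, mostly 8, 3 and 7. Fkbp5 ran from 136 to 245 CPM over young sham clusters and from 301 to 1604 over young CA clusters, and all 9 of the latter were above the highest sham cluster. In aged it ran from 50.2 to 132 CPM in sham and from 467 to 1406 in CA, and all 5 CA clusters were above the highest sham cluster. Tsc22d3 was above the highest sham cluster in 9 of 9 young CA clusters and 4 of 5 aged, Klf9 in 7 of 9 and 5 of 5, Ddit4 in 7 of 9 and 5 of 5, and Zbtb16 in 8 of 9 and 3 of 5. Nr3c1 was below the lowest sham cluster in 9 of 9 young CA clusters and in 1 of 5 aged.

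CA clusters differed widely among themselves. In young CA, clusters 7, 8 and 16 had the most Fkbp5, at 1604, 1234 and 1215 CPM, and also the most Zbtb16, at 171, 100.4 and 134 CPM, whereas cluster 1 had the least of both, at 301 and 7.61 CPM. In aged CA, cluster 7 had the most Fkbp5 (1406 CPM) and Zbtb16 (61.6 CPM) and cluster 3 the least (467 and 16.3 CPM). Median depth was 3077.5 UMIs in young CA cluster 7 and 12613 in cluster 1, and in aged CA 3653 in cluster 7 and 12880 in cluster 3. The part of depth in these differences was not tested. Young sham and young CA shared 3 clusters, and in all 3 of these Fkbp5, Tsc22d3, Klf9, Zbtb16 and Ddit4 were higher in CA and Nr3c1 was lower. The log2 ratio of Fkbp5, with 1 CPM added to each cluster level, ran from 0.78 to 1.46 within them, below the 1.92 of all microglia. In the same way Tsc22d3 ran from 0.57 to 1.45 (1.74 in all microglia), with a median of 0.89, under 2-fold. Klf9 ran from 1.90 to 2.84 (4.25), Zbtb16 from 2.24 to 3.81 (5.48) and Ddit4 from 1.36 to 1.68 (3.16). Nr3c1 ran from -0.79 to -0.31 (-0.74). Per1 was higher in 2 and lower in 1 of these clusters, from -0.27 to 0.45 (0.68), as was Errfi1, from -0.16 to 0.07 (0.14). Cebpd was higher in 1 and lower in 2, from -0.07 to 0.04 (0.48), as was Sgk1, from -0.26 to 0.25 (-0.0025). Aged sham and aged CA shared 0 clusters, so cell state and library cannot be told apart there.

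**Figure D3:**
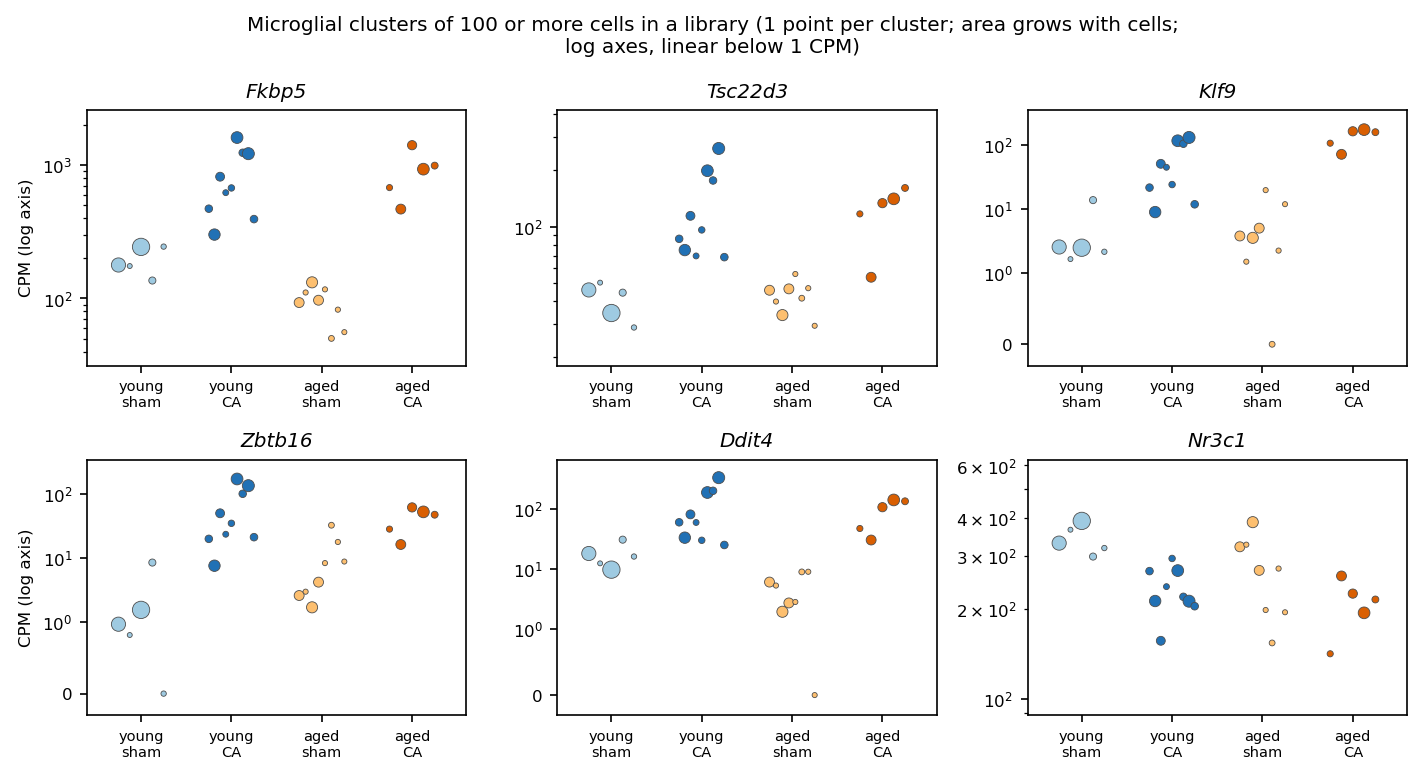
CPM of 6 members (log axis, linear below 1 CPM) in microglial clusters of at least 100 cells, 1 point per cluster and library. All CA clusters lie above the sham clusters of the same age for Fkbp5, while for Nr3c1 the aged clusters overlap.

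Border macrophages, which line the vessels and coverings of the brain, also had most of these members higher after CA. They were few (55 sham and 49 CA cells of young mice, 22 and 60 of aged mice), and 16.7% to 54.5% of them lay near the gate, with a second class at 0.40 to 0.50 of the highest marker level. In young CA 6 of 10 members were 2-fold higher, where 4.98% of all genes were, and 0 were lower, where 5.66% were, and in aged CA 7 of 10, where 12.8% were. Both counts of higher members include Sgk1, whose ratios are not read as a difference, for reasons given below. Fkbp5 measured 178 CPM (sham) against 979.5 (CA) among young mice and 66.2 against 1147 among aged mice, that is 5.49-fold (4.36 to 6.98) and 17.3-fold (10.6 to 30.5) higher. Tsc22d3 measured 204 CPM (sham) against 451 (CA) among young mice and 182 against 707 among aged mice, or 2.21-fold (1.73 to 2.84) and 3.89-fold (2.84 to 5.44) higher. Both genes had no overlap of intervals between sham and CA at either age, though the young log2 ratio of Tsc22d3 was at the 2-fold limit with highest-share gating.

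Other members were nearly absent from sham border macrophages and measured in both CA libraries. Ddit4 went from 2 UMIs (3.92 CPM) to 96 UMIs (239 CPM) in young, a ratio of 61.0 (16.4 to 511), and from 1 UMI (4.13 CPM) to 145 (289 CPM) in aged, a ratio of 69.8 (12.3 to 2778). Klf9 went from 9.80 to 167 CPM in young, a ratio of 17.0 (6.95 to 54.2), and from 1 UMI to 289 CPM in aged, a ratio of 69.8 (12.3 to 2778). Zbtb16 went from 11.8 to 219 CPM, a ratio of 18.6 (8.23 to 52.2), and from 1 UMI to 219 CPM, a ratio of 53.0 (9.31 to 2112). Thinned to 2000 UMIs, the aged log2 ratios of Ddit4 and Klf9 were 3.51 and 3.68, each in place of 6.13. That of Ddit4 in young ran from 4.81 when thinned to 6.91 with at least 5000 UMIs per cell, around 5.93, and that of Zbtb16 in aged was 4.63 in place of 5.73 with highest-share gating. Per1 was 1.89-fold (1.17 to 3.08) higher in young and 8.19-fold (3.37 to 25.9) in aged, from 5 UMIs in aged sham. With cells thinned to 2000 UMIs its young log2 ratio was -0.02 in place of 0.92. Sgk1 was 2.23-fold (1.05 to 4.96) and 3.85-fold (1.17 to 20.0) higher, from 12 and 3 sham UMIs, and its log2 ratios were 0.37 and 0.65 with cells given to the class with the highest share of markers, so both were then under 2-fold. The microglial list stood in border macrophages at 13.5% to 19.2% of its level in microglia. Were all of this free RNA, it would bring 46.5 CPM (sham) and 49.6 (CA) of Sgk1 in young mice and 39.2 and 21.2 in aged mice. Measured Sgk1 was at 23.5 and 52.3 CPM in young and at 12.4 and 47.8 CPM in aged mice. Both sham levels were below that figure, so it overstates free RNA there and cannot give its true part. With so few sham UMIs, and both calls lost with highest-share gating, the ratios of Sgk1 are not read as a difference. For Fkbp5 the same measure gave 36.9 and 149 CPM in young and 19.0 and 111 in aged mice, below the levels measured.

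Nr3c1 in border macrophages measured 278 CPM (sham) against 207 (CA) among young mice and 430.0 against 159 among aged mice, a ratio of 0.743 (0.560 to 0.981) and 0.371 (0.273 to 0.501). The aged value was the single member 2-fold lower, where 12.2% of all genes were. Errfi1 measured 31.4 CPM (sham) against 37.4 (CA) among young mice and 45.5 against 59.8 among aged mice, with both intervals of the ratio including 1. Cebpd was at 0.587 (0.417 to 0.817) of sham in young and 1.37 (0.914 to 2.11) in aged, and its young log2 ratio was -1.18 in place of -0.77 when thinned. The border macrophage marker list itself summed to 16513 CPM (sham) and 13220 (CA) in young and to 14112 and 8023 in aged mice, and the microglial list to 3544, 2475, 2952 and 1121 CPM.

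T cells, the lymphocytes of adaptive immunity, numbered 40 (sham) and 20 (CA) in young and 149 and 114 in aged mice, and the difference between the ages was not tested. In aged T cells 4 of 9 members that could be compared were 2-fold higher, where 6.78% of all genes were, and 0 were lower, where 10.2% were. Fkbp5 measured 134 CPM (sham) against 200.2 (CA) among young mice and 65.3 against 241 among aged mice, with ratios of 1.5 (0.966 to 2.28) and 3.69 (2.90 to 4.74). Tsc22d3 measured 98.3 CPM (sham) against 177 (CA) among young mice and 51.3 against 275 among aged mice, with ratios of 1.80 (1.11 to 2.86) and 5.36 (4.13 to 7.04). Klf9 was 15.4-fold (8.32 to 31.7) and Per1 2.83-fold (2.05 to 3.95) higher in aged T cells. Ddit4 passed 2-fold when thinned (log2 ratio 1.74 in place of 0.90) and Zbtb16 with classes by cluster (1.41 in place of 0.97). Had microglial RNA entered T cells at the share of its marker list, it would have given 42.0 CPM of Fkbp5 and 5.83 CPM of Tsc22d3 in aged CA.

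In young T cells 1 of 6 members, Ddit4, was 2-fold higher (2.95-fold, 1.28 to 6.76, with 14 UMIs in sham and 13 in CA), where 4.55% of all genes were. As a mean over cells its log2 ratio was 0.97. With classes by cluster the young log2 ratios of Fkbp5 and Tsc22d3 were 1.07 and 1.34, past 2-fold, in place of 0.58 and 0.84. Sgk1 had 20 UMIs in young sham T cells and 0 in the 20 young CA cells, which is 2.10-fold lower when 3 UMIs are taken as the limit for the CA library. The counting interval of the ratio reaches up to 0.643, so a difference under 2-fold remains possible, and 12.8% of all genes were 2-fold lower. Nr3c1 was higher after CA in T cells and lower in the macrophages, a difference between classes that was not tested. It measured 304 CPM (sham) against 489 (CA) among young mice and 283 against 363 among aged mice, with ratios of 1.61 (1.22 to 2.10) and 1.28 (1.11 to 1.48). Its young log2 ratio was 0.24 in place of 0.68 with classes by cluster, above 0 but under its counting interval (0.28 to 1.07). Zbtb16, which also marks innate-like T cells, measured 59.4 CPM (sham) against 64.8 (CA) among young mice and 21.8 against 42.7 among aged mice, with ratios of 1.09 (0.496 to 2.22) and 1.96 (1.21 to 3.22). With highest-share gating the young log2 ratio of Zbtb16 was 2.07 in place of 0.13.

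B cells and neutrophils could be compared in aged mice alone. The B cell marker list itself summed to 12383 CPM in aged sham and 31467 in aged CA, with a median of 9 and 7 of its markers per cell, and its part in the ratios was not tested. In B cells (37 in each library) 4 of 5 members were 2-fold higher, where 6.89% of all genes were. Fkbp5 stood at 24.2 CPM in aged sham and 383 in aged CA, 15.8-fold (8.04 to 35.5) higher, and Tsc22d3 at 91.5 and 451 CPM, 4.92-fold (3.36 to 7.41) higher. Ddit4 was 7.73-fold (3.45 to 20.4) and Per1 5.04-fold (1.83 to 17.2) higher, from 7 and 5 sham UMIs, and Nr3c1 was at 0.574 (0.376 to 0.861) of sham. No member with enough counts was 2-fold lower, where 16.3% of all genes were. With the stricter limit on a second class, set after the data were seen, Ddit4 was at a log2 ratio of 1.94 in place of 2.95. That of Fkbp5 ran from 3.09 with classes by cluster to 4.85 when thinned, around 3.98, and that of Nr3c1 was -1.04 in place of -0.80 when thinned. The other 5 members had too few counts, with at most 13 UMIs over both libraries.

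In neutrophils (20 aged sham and 61 aged CA cells, of which 35.0% and 39.3% lay near the gate) 3 of 8 members were 2-fold higher, where 23.4% of all genes were, the highest such share of the comparisons here, and 1 was lower, where 10.7% were. With 8 genes, both counts are near these shares. Fkbp5 stood at 70.9 and 354 CPM, 5.0-fold (2.82 to 9.78) higher, and Klf9 at 11.8 and 116 CPM, 9.84-fold (2.66 to 82.4) higher from 2 sham UMIs. Per1 had 0 UMIs in aged sham and 66 in aged CA, which is at least 4.21-fold higher with 3 UMIs as the limit for the sham library, and the counting interval of the ratio starts at 3.33. Cebpd, highest in neutrophils of all classes in aged sham, went from 461 to 178 CPM, a ratio of 0.387 (0.293 to 0.515). Nr3c1 stood at 201 and 177 CPM, a log2 ratio of -0.18 that changed sign under 2 of 10 alternatives. The count depends on how neutrophils are chosen. With classes taken by cluster the log2 ratio of Cebpd was -0.67 in place of -1.37, that of Sgk1 -1.08 in place of 0.90, that of Zbtb16 2.22 in place of 0.20 and that of Tsc22d3 1.62 in place of 0.88. Fkbp5 and Klf9 were then at 3.28 and 4.24 in place of 2.32 and 3.30. Monocytes were too few in both shams (11 and 13 cells) to be compared with CA.

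**Figure D4:**
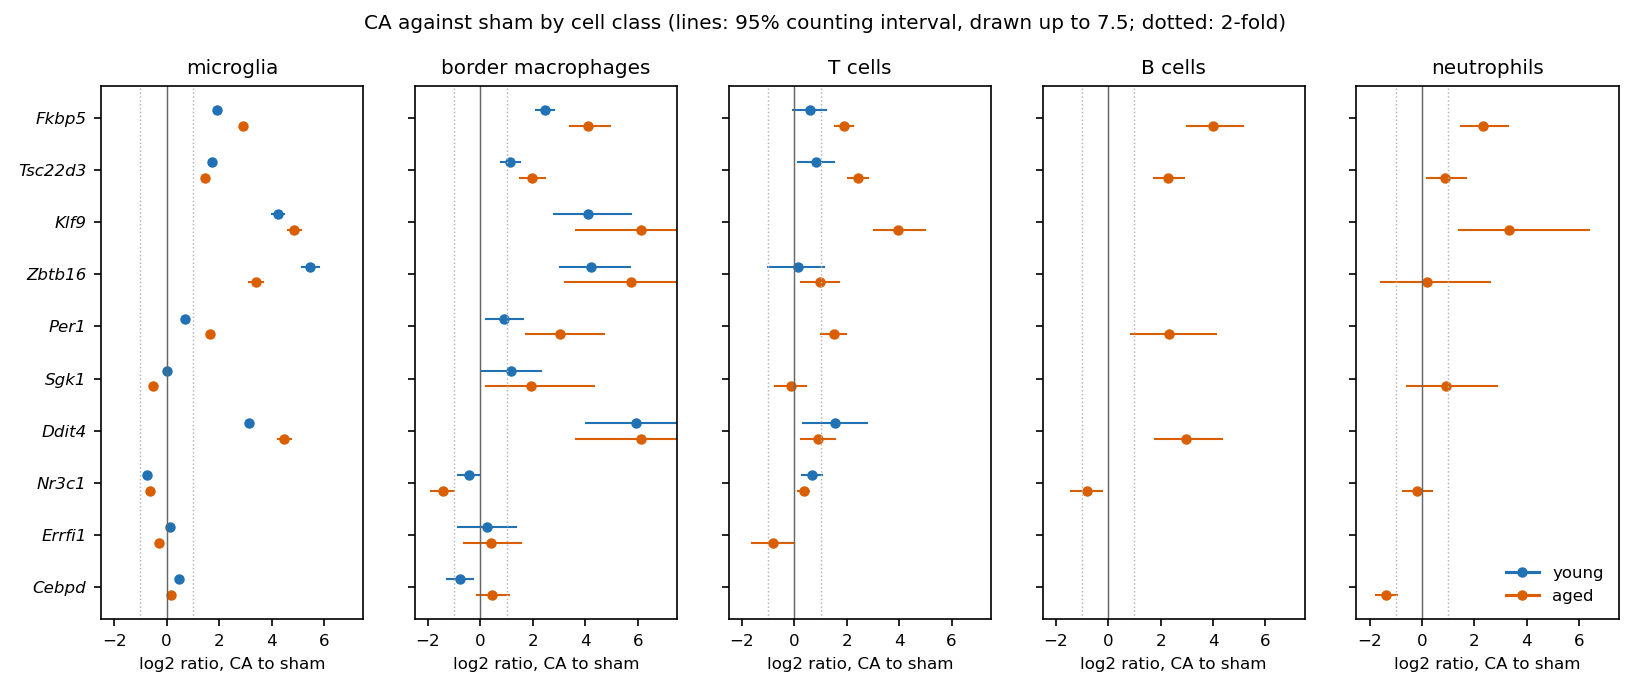
Log2 ratio of CA to sham (x axis) for each member (y axis) in 5 cell classes, young in blue and aged in orange, with 95% counting intervals drawn up to 7.5. Fkbp5 is at least 2-fold higher in 7 of the 8 comparisons, and Nr3c1 is below 0 in 6 and above 0 in the T cells of both ages. In 5 of those 6 the interval is also below 0, the exception being neutrophils. Sgk1 in young T cells and Per1 in neutrophils have a library at 0 and are not drawn, nor are members under the minimum of counts.

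Over these 8 comparisons of CA with sham, which share libraries within an age, Fkbp5 was 2-fold higher in 7 of 8 (the exception being young T cells, where the call depends on the gate), Tsc22d3 in 6 of 8, Klf9 in 6 of the 6 with enough counts, Ddit4 in 6 of 7, Per1 in 5 of 7 and Zbtb16 in 4 of 7. Sgk1 was 2-fold higher in 2 of 7, both in border macrophages, where its ratios are not read as a difference. It was 2-fold lower in 1, young T cells, where a difference under 2-fold remains possible. Errfi1 was 2-fold higher or lower in 0 of 5. Of the 20 other glucocorticoid-induced genes, the numbers 2-fold higher were 6 of 13 in young border macrophages (4.98% over all genes) and 9 of 13 in aged (12.8%). They were 5 of 11 in aged T cells (6.78%), 6 of 9 in aged B cells (6.89%) and 4 of 11 in aged neutrophils (23.4%), the last being near its share. In young T cells 0 of 6 were higher (4.55%) and 2 were lower (12.8%).

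The order of classes differed between members, as the levels in aged CA show. Fkbp5 was highest in border macrophages of aged CA (1147 CPM) and next in microglia (820.1). B cells (383 CPM), neutrophils (354) and monocytes (351) followed with overlapping intervals, and T cells were lowest (241 CPM). Tsc22d3 ran in another order, with 707 CPM in border macrophages, 451 in B cells, 275 in T cells, 195 in neutrophils, 142 in monocytes and 114 in microglia, and no 2 neighbours overlapped. Zbtb16 was at 219 CPM in border macrophages, at 42.7 and 40.3 in T cells and microglia, which overlapped, and at 20.3, 6.44 and 3.39 CPM in neutrophils, monocytes and B cells. Sgk1 was highest in monocytes (221 CPM) and microglia (157 CPM) and at most 47.8 CPM elsewhere, while in young CA microglia (258 CPM) were above monocytes (221 CPM). Nr3c1 was highest in T cells (363 CPM).

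**Figure D5:**
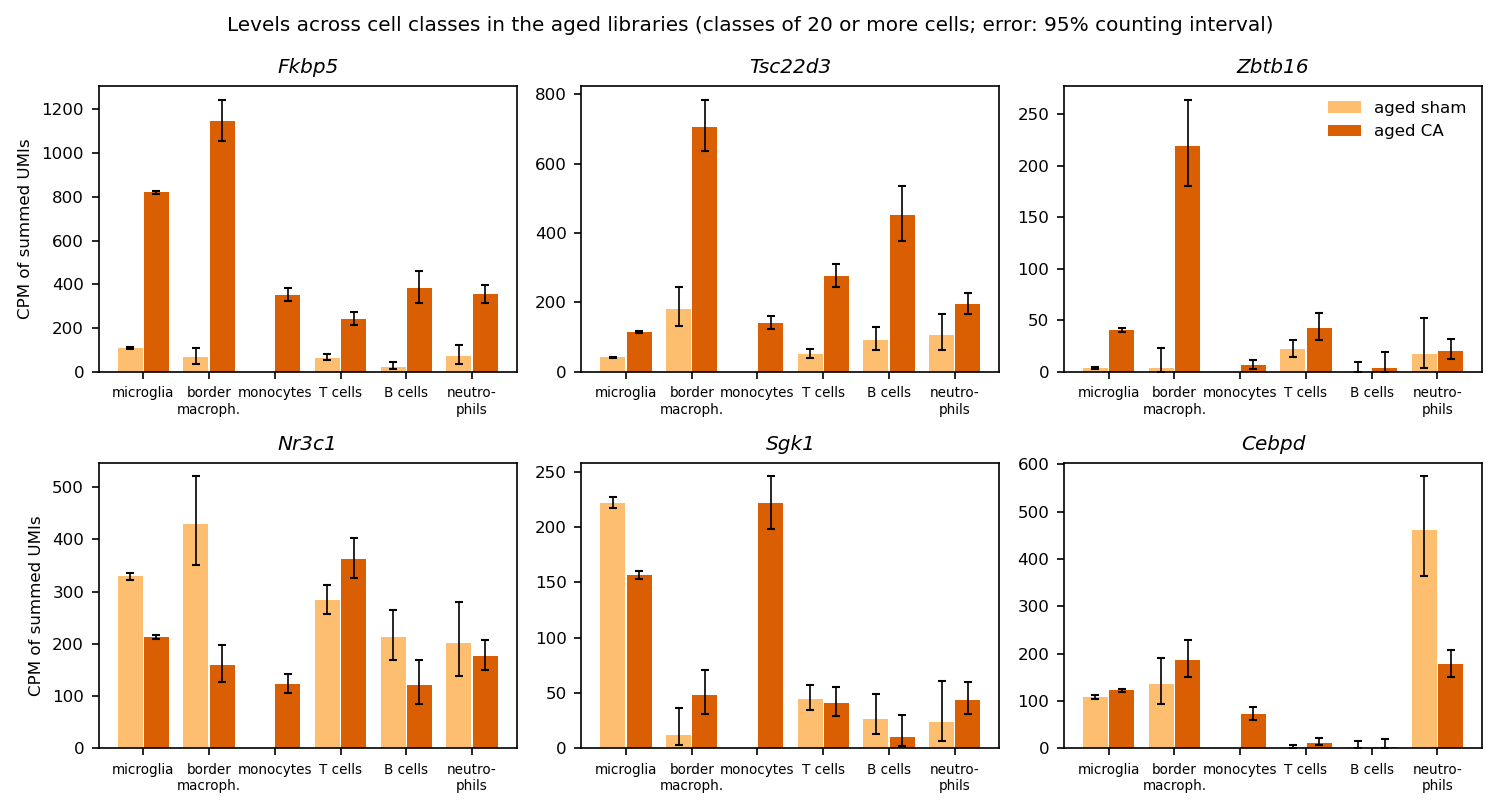
CPM of 6 members (bars, with 95% counting intervals) across cell classes in aged sham and aged CA; monocytes of aged sham had under 20 cells and have no bar. Fkbp5 in aged CA runs from 241 CPM in T cells to 1147 in border macrophages, and Cebpd falls in neutrophils from 461 to 178 CPM.

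Age was compared within sham and within CA. In sham microglia 8 members had enough counts, and Ddit4 was 2-fold lower in aged than in young, at a ratio of 0.30 (0.248 to 0.361), where 0.242% of all genes were. Fkbp5 was at 0.526 (0.506 to 0.546) of young sham, past 2-fold as a mean over cells (log2 ratio -1.04 in place of -0.93), and Errfi1 1.88-fold (1.76 to 2.0) higher, and 0 members were 2-fold higher, where 3.10% of all genes were. Tsc22d3, Per1, Sgk1, Nr3c1 and Cebpd lay between 0.860 and 1.15. Klf9 and Zbtb16 failed the minimum of 5 CPM, at 2.99 and 1.41 CPM in young sham and 4.48 and 3.84 CPM in aged sham. In sham border macrophages, Fkbp5 and Per1 were 2 of 6 members 2-fold lower in aged, at 0.371 (0.203 to 0.635) and 0.340 (0.103 to 0.882), where 7.26% of all genes were, and 0 were higher, where 5.73% were. Neither call held throughout: Fkbp5 was at a log2 ratio of -0.93 in place of -1.43 when thinned, and Per1 at -0.97 in place of -1.56 with highest-share gating. In sham T cells, Errfi1 was 4.64-fold (1.70 to 17.7) and Per1 2.20-fold (1.11 to 4.82) higher in aged, where 6.38% of all genes were 2-fold higher. Zbtb16 and Fkbp5 were 2-fold lower there, at 0.367 (0.216 to 0.621) and 0.489 (0.356 to 0.675), where 6.67% were. The log2 ratio of Zbtb16 was 0.35 in place of -1.45 with highest-share gating, and that of Per1 0.20 in place of 1.14 with classes by cluster. With the second class held to 0.25, Fkbp5 was at -0.75 in place of -1.03 and Tsc22d3 at -1.15 in place of -0.94.

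Between the CA libraries, Klf9 was the single member 2-fold higher in aged microglia, at a ratio of 2.32 (2.23 to 2.40), where 2.45% of all genes were, and it was below 2-fold when cells were thinned to 2000 UMIs. Per1 was 1.87-fold (1.80 to 1.94) higher, while Zbtb16 was at 0.640 (0.608 to 0.674) and Sgk1 at 0.608 (0.592 to 0.623) of young CA. Fkbp5 and Nr3c1 were nearly level, at 1.06 (1.04 to 1.07) and 1.0 (0.980 to 1.03), and 0 members were 2-fold lower, where 3.67% of all genes were. In monocytes after CA (255 young and 56 aged cells) Klf9 stood at 21.0 CPM in young and 108 in aged, 5.16-fold (4.02 to 6.65) higher, and Fkbp5 at 133 and 351 CPM, 2.65-fold (2.36 to 2.97) higher. These were 2 of 10 members, where 7.38% of all genes were 2-fold higher, and 0 were lower, where 11.8% were. The neutrophil marker list summed to 208 CPM in young CA monocytes and 11790 in aged CA monocytes, and Fkbp5 and Klf9 in aged CA monocytes (351 and 108 CPM) were near their levels in aged CA neutrophils (354 and 116 CPM). The part of neutrophil RNA in these ratios was not tested. With the second class held to 0.25, the log2 ratios of Fkbp5 and Klf9 were 1.76 and 2.52 in place of 1.40 and 2.37, and Ddit4 and Errfi1 also passed 2-fold, at 1.14 and 1.04. Thinned, Per1 was at 1.28 in place of 0.86 and Errfi1 at -1.43 in place of 0.33. In border macrophages 0 of 10 members were 2-fold higher in aged CA than in young CA, where 5.70% of all genes were, and 0 were lower, where 8.33% were. Thinned to 2000 UMIs, Per1 was at a log2 ratio of 1.46 in place of 0.56 and Sgk1 at -1.74 in place of -0.13, so these counts do not hold there. In T cells Klf9 was 5.06-fold (1.93 to 18.9) and Per1 4.89-fold (1.86 to 18.3) higher in aged CA, each from 4 young UMIs, and Sgk1 had 0 UMIs in young CA and 41 in aged CA, 2.31-fold higher with 3 UMIs as the limit and with a counting interval from 1.79, where 14.4% of all genes were 2-fold higher. No member was 2-fold lower there, where 8.65% were. Thinned to 2000 UMIs, the log2 ratio of Klf9 in T cells was 0.68 in place of 2.34, and those of Zbtb16, Nr3c1 and Tsc22d3 passed 2-fold, at -1.49, -1.01 and 1.04. With classes by cluster that of Errfi1 was 2.08 in place of 0.75.

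The genes most like Fkbp5 and Tsc22d3 were sought over the 18 combinations of class and library with at least 20 cells, by Pearson correlation of log2(CPM + 1) among 7079 genes. The points share libraries and depth, so r is a description with no test. For Fkbp5 the 5 nearest were Pnpla2 (r = 0.92), the triglyceride lipase of fat stores, Gm22146 (0.86), E230001N04Rik (0.85), Crk (0.82) and the member Klf9 (0.82). For Tsc22d3 they were Ncoa1 (0.75), a coactivator of nuclear receptors, Cited2 (0.70), Pnpla2 (0.70), Mt1 (0.69) and Mt2 (0.68). Nr3c1 had r = -0.31 with Fkbp5 and -0.27 with Tsc22d3.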

How the data were processed

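Raw UMI counts per gene and barcode for 4 libraries were deposited by the authors, made with Cell Ranger 7.1.0 on mm10, per the submitters' processing notes. The gene annotation and whether intronic reads were counted are not given in the sources used here. The libraries held 72648041, 115892682, 44277472 and 70924569 UMIs over 9038, 10794, 7700 and 6794 barcodes (young sham, young CA, aged sham, aged CA).

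Kept barcodes had at least 500 UMIs, 200 genes and at most 10% mitochondrial UMIs. Doublets were scored with Scrublet, whose own cutoff found 1 barcode in all, so the highest scores were removed instead, at 0.8% per 1000 cells. A cell entered a class when that class's list had the highest relative marker level (mean log of UMIs per 10000, over its median in clear cells of the class), at least 0.2, with 3 or more markers detected and any second of the 13 lists at no more than 0.5 of it. This rule was revised 2 times after cells per class had been seen. Summed counts gave CPM with exact Poisson intervals, and ratios with exact conditional binomial intervals, checked on simulated data. Where a library is at 0, 3 UMIs of that library are the limit. A gene was compared with at least 20 UMIs over both libraries, a mean of 5 CPM, and 20 cells of the class in each. Clusters came from scanpy 1.11.5 (Leiden, resolution 1) and TMM from edgeR 4.0.16.

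The members, lists and rules were chosen with earlier results of these data known. All members are named, up to 6 genes of each other list by size of the young microglial ratio, and the 5 genes most correlated with Fkbp5 and with Tsc22d3; Il7r was named after its value was seen. The 14 alternatives planned and 3 added after seeing the data (a second class at no more than 0.25, haemoglobin under 1%, at least 5000 UMIs) are in the closing section.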

Additional observations from a re-analysis of the deposited data

Results flagged for a closer look

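Errfi1 moved in opposite directions with CA in the microglia of the 2 ages. Its log2 ratio of CA to sham was 0.14 in young and -0.30 in aged, and the sign at each age was the same under all 16 alternatives. Within the 3 microglial clusters shared by young sham and young CA, however, it was higher in 2 and lower in 1, from -0.16 to 0.07. With 1 library per group, the difference between the ages was not tested. Aged sham had the highest level of the 4 libraries (63.2 CPM) and was also the library that stood apart in depth and haemoglobin.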

How the results depend on the processing

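No paired analysis was possible because each group was 1 library, and for the same reason no replicate could be left out. The counts of members 2-fold higher in CA microglia were 5 in young and 6 in aged under each alternative run, except 6 in young with 1.5-fold as the limit. The count for aged sham against young sham was 0, but 1 with no minimum of CPM and 1 at 1.5-fold. For aged CA against young CA it was 1, but 0 with cells thinned to 2000 UMIs and 2 at 1.5-fold. Of the single member ratios in microglia recomputed under the alternatives, 479 stayed within their counting interval and 129 moved out of it with no called value changing sign. In the other classes 1155 stayed and 37 moved. Of the ratios called 2-fold there, 1 reversed, that of Zbtb16 in T cells of aged sham against young sham. It was at a log2 ratio of 0.35 in place of -1.45 with cells given to the class with the highest share of markers. The cause was not tested. Ratios under 2-fold that changed sign are not counted as reversed. Among them are Sgk1 in neutrophils (-1.08 in place of 0.90) and Errfi1 in monocytes of aged CA against young CA (-1.43 in place of 0.33). Border macrophages formed no cluster of their own, so classes by cluster gave no value for them. Depth limits the small classes most: 3 UMIs come to 17.7 CPM in neutrophils of aged sham and in T cells of young CA, against at most 0.0967 CPM in microglia.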

Other observations

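Members of the circadian clock other than Per1 were followed because the receptor feeds into the clock. Of 13 such genes, 1 of the 9 that could be compared in young microglia and 3 of 10 in aged were 2-fold higher after CA, where 6.44% and 6.40% of all genes were, with median log2 ratios of 0.21 and 0.43. With 9 genes, the single call in young is near that share. Cry1, a clock repressor, measured 7.95 CPM (sham) against 15.9 (CA) among young mice and 8.80 against 47.0 among aged mice. Cry2 was 1.74-fold and 2.22-fold higher, and Arntl, a clock activator, was at 0.586 and 0.857 of sham. The hour at which the brains were taken is not given in the sources used here.

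The integrated stress response can also raise Ddit4, and its part in the Ddit4 ratios was not tested. Of 8 genes of this response, 3 could be compared in microglia. At either age 0 of them passed 2-fold, where 6.44% (young) and 6.40% (aged) of all genes were 2-fold higher. With 3 genes, a count of 0 is near that share. Their median log2 ratios were 0.02 in young and 0.40 in aged, with Atf4 at 1.23-fold and 1.32-fold, Ddit3 at 1.02-fold and 0.741-fold and Sesn2 at 0.764-fold and 1.57-fold.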
